A study of Homo sapiens with 24 samples.

Results

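Knockout clone 75 (C75) of the SW1222 colorectal cancer line was compared with its scrambled control over every gene that had a probe set with a single gene symbol. The 2 arrays titled as clone 75 and the 2 titled as knockout control were chosen by their labels, out of 24 arrays in the series, and 17448 genes were tested. The C75 cells carried a CRISPR disruption of DPPA3 and the control cells a scrambled guide RNA. Both were grown without treatment as megacolonies embedded in Matrigel (3D culture), at 21% oxygen, 5% CO2 and 37 °C. Clone 66 (C66), a second CRISPR clone grown the same way, had 2 arrays. Each knockout was therefore represented by 1 clone, and differences that any clone carries cannot be told apart from the effect of losing DPPA3. The series also held a DPPA3 shRNA with its control shRNA in 3D, and a line with doxycycline-inducible DPPA3 with its control line, treated for 5 days in 3D or for 4 hours in 2D, with 3 arrays per group. The labels do not say whether replicate arrays came from separate cultures, so every p-value here reflects array-to-array spread, which may be technical. In bulk RNA, fewer cells of one kind and less RNA per cell cannot be told apart.

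DPPA3, also called STELLA or PGC7, is a small protein of oocytes and early germ cells. It binds UHRF1, the factor that brings the methyltransferase DNMT1 to newly replicated DNA, and so limits maintenance of DNA methylation. The title of the series places DPPA3 with HIF1α, the oxygen-regulated transcription factor, in chemoresistance and a slow cell cycle of colorectal cancer. SW1222 is known for forming gland-like structures with lumens in 3D culture.

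Colonic genes were bright on the array. Averaged over all 24 arrays, 13 of 13 measured genes of a list for colonic epithelial lines gave signals above the median of all genes. Their median level was 9.08 in C75 and 9.38 in the control. In C75 against the control 0 of them passed the test, and 2 were lower in C75 than in C66, where 1.98% of all genes were. Of 25 measured leukocyte and endothelial genes, 4 were above that median by the same average and 0 passed against the control. The signals are RMA values on the log2 scale, on which the median of all genes was 4.09. With 2 arrays a side, a typical log2 fold change had an SE of 0.15 (median over genes).

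The targeted gene was dim in every group except the induced line. There DPPA3 read 3.77, 4.54 and 4.74 in 3D and 4.73, 4.18 and 6.16 in 2D. It read 2.68 and 3.03 in the scrambled control and 3.19 and 2.89 in C75. These values overlap, with a log2 difference of 0.19 (SE 0.37, limma adjusted p = 0.983). The C75 arrays placed DPPA3 above 31.6% and 24.2% of genes, and the control arrays above 18.4% and 27.0%. Guide RNAs can disrupt a coding sequence without lowering its RNA, so at this signal the array gives no check of the knockout.

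In C75, 108 genes passed at a limma adjusted p under 0.05, which is 0.619% of genes tested. Of these, 24 were higher (0.138%) and 84 lower (0.481%), and 34 changed at least 2-fold, 5 higher and 29 lower. The largest named falls were in CST1, NELL2, UPK1A, PLA2G2A and SCARNA10, and 31 of the lower genes were neighbours on chromosome 10. The largest named rises were in GABRA2, MUC12, SNORA6 and SATB1. Fewer genes passed with 1 of the 4 arrays left out: 38 passed without scrambled replicate 1, 47 without C75 replicate 2, 66 without C75 replicate 1 and 67 without scrambled replicate 2. With 1 array left in a group, its spread was taken from the other groups, here and wherever an array is left out. The median log2 fold change of all genes was -0.0015.

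CST1, which encodes cystatin SN, a secreted inhibitor of cysteine proteases, read 7.59 and 7.57 in the control and 5.36 and 5.12 in C75. Both C75 arrays lay far below both control arrays, a 5.08-fold fall (log2 fold change -2.34, SE 0.28, adjusted p = 2.28e-05). The C66 arrays read 6.98 and 7.66, and C66 did not pass (adjusted p = 0.895). NELL2, a secreted ligand of ROBO3 known from the nervous system, read 6.89 in each control array and 5.19 and 4.98 in C75. It fell 3.498-fold (log2 fold change -1.81, SE 0.23, adjusted p = 4.35e-05). UPK1A, a tetraspanin of the urothelial surface, read 7.59 and 7.39 in the control against 5.79 and 5.70 in C75. The log2 difference was -1.75 (SE 0.14, adjusted p = 6.61e-08), with no overlap between groups.

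PLA2G2A, a secreted phospholipase of Paneth cells that is bactericidal, was the brightest of these genes. It read 10.22 and 9.99 in the control and 8.52 and 8.35 in C75, a log2 fold change of -1.67 (SE 0.14, adjusted p = 1.35e-07). The C66 arrays lay between, at 9.71 and 9.56. CYP4X1, an orphan cytochrome P450, fell from 6.56 and 6.45 to 5.00 and 4.95 (log2 fold change -1.53, adjusted p = 5.00e-06). GAL, the precursor of the neuropeptide galanin, fell from 7.01 and 7.05 to 5.58 and 5.63 (log2 fold change -1.42, adjusted p = 2.28e-05). NMUR2, a receptor for neuromedin U, fell by 1.42 on the log2 scale as well (adjusted p = 4.11e-05), and its signals of 3.06 and 3.41 in C75 were below the median of all genes. SEMA6A, a transmembrane semaphorin, fell by 1.41 (adjusted p = 0.000488). PCP4, a small regulator of calmodulin, fell by 1.36 (adjusted p = 0.000485). All 9 genes described so far as lower in C75 passed under every alternative setting that held them and without any single array.

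A small nuclear RNA and a secreted peptide changed less firmly. SCARNA10, a guide RNA of Cajal bodies, read 7.89 and 8.01 in the control and 6.16 and 6.55 in C75 (log2 fold change -1.59, SE 0.37, adjusted p = 0.0384). Leaving out C75 replicate 1 gave an adjusted p of 0.367, C75 replicate 2 0.142, scrambled replicate 1 0.209 and scrambled replicate 2 0.294. FAM3B, a cytokine-like secreted protein, fell by 1.27 on the log2 scale (adjusted p = 0.0175). Its adjusted p was 0.184 without C75 replicate 1, 0.138 without C75 replicate 2 and 0.403 without scrambled replicate 1.

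Among higher genes, GABRA2, the alpha-2 subunit of the GABA-A receptor, moved most. It read 3.69 and 3.59 in the control, below the median of all genes, and 5.05 and 5.07 in C75. This was a 2.67-fold rise (log2 fold change 1.42, SE 0.13, adjusted p = 5.59e-07). SATB1, which organises chromatin loops, rose from 3.24 and 3.11 to 4.22 and 4.16 (log2 fold change 1.02, adjusted p = 0.000128). CDHR1, a photoreceptor cadherin, rose from 6.06 and 5.93 to 6.94 and 7.03 (log2 fold change 0.99, adjusted p = 0.000549). SNORA6, a small nucleolar RNA that guides pseudouridylation, rose from 5.08 and 4.91 to 6.11 and 6.16 (log2 fold change 1.14, adjusted p = 0.00115). CDHR1 and SNORA6 also passed in every alternative and without any single array. GABRA2 and SATB1 did so in every alternative that held them, which leaves out the fit on genes above the median level only.

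The next rises did not pass without some of the arrays. MUC12, a membrane mucin of the colon, read 5.30 and 5.37 in the control and 6.11 and 6.86 in C75 (log2 fold change 1.14, adjusted p = 0.00228). The C75 arrays differed by more than the control arrays, and the adjusted p was 0.217 without C75 replicate 2 and 0.0621 without scrambled replicate 1. GCNT3, which branches mucin O-glycans, rose by 0.81 (adjusted p = 0.00588), with 0.120 without C75 replicate 1 and 0.216 without scrambled replicate 2. A2ML1, a protease inhibitor, rose by 1.01 (adjusted p = 0.00167), with 0.0613 without C75 replicate 1 and 0.103 without scrambled replicate 2. CA8, a carbonic anhydrase relative without catalytic activity, rose by 0.94 (adjusted p = 0.00115), with 0.0825 without C75 replicate 1.

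ENTPD5, a nucleotidase of the endoplasmic reticulum, rose by 0.87 on the log2 scale (adjusted p = 0.00778). Its adjusted p was 0.122 without C75 replicate 1, 0.0691 without C75 replicate 2 and 0.194 without scrambled replicate 2. UBE2E2, a ubiquitin-conjugating enzyme, rose by 0.78 (adjusted p = 0.00423), with 0.138 without C75 replicate 2 and 0.164 without scrambled replicate 1. TRIM31, a ubiquitin ligase of the intestine, rose by 0.82 (adjusted p = 0.0137), with 0.329 without C75 replicate 2, 0.183 without scrambled replicate 1 and 0.101 without scrambled replicate 2. SETD7, a lysine methyltransferase, rose by 0.80 (adjusted p = 0.0406), with 0.513 without C75 replicate 1, 0.0939 without scrambled replicate 1 and 0.472 without scrambled replicate 2. COG4, a subunit of a Golgi tethering complex, rose by 0.71 (adjusted p = 0.00466), and PNPLA3, a lipid droplet hydrolase, by 0.67 (adjusted p = 0.0197). Neither of them passed when any of the 4 arrays was left out, with adjusted p up to 0.0915 for COG4 without scrambled replicate 1 and up to 0.305 for PNPLA3 without C75 replicate 1.

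The naming rule asked only the brighter group mean to exceed the median of all genes. The C75 mean lay below that median for AKR1E2, FAM3B, NMUR2, NUDT5, SEMA6A and ST8SIA6, and the control mean for CA8, GABRA2, SATB1 and SETD7, so these genes met it through the other group alone.

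**Figure D1:**
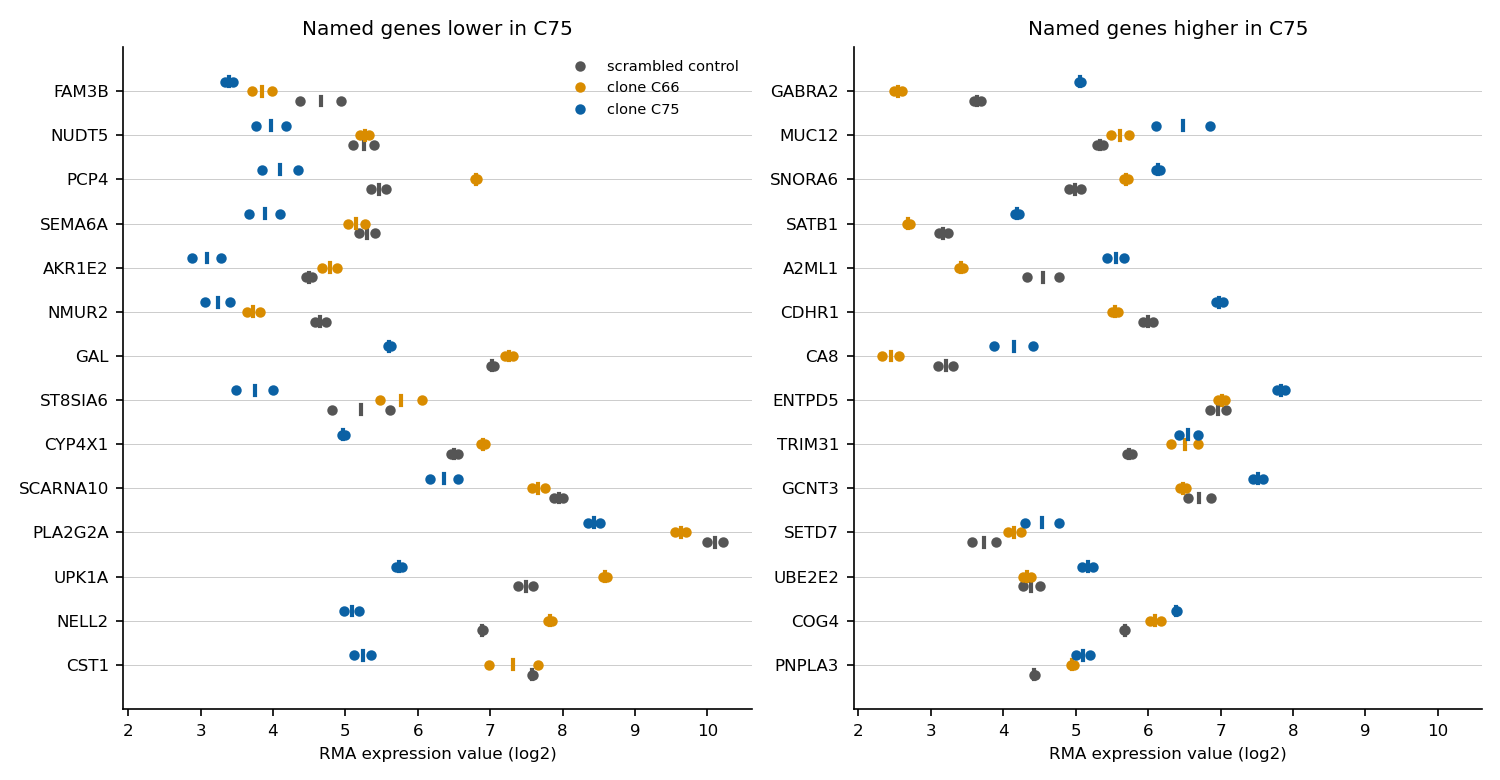
RMA values (log2) of the 14 most lowered and 14 most raised named genes; dots are arrays, ticks group means of 2 arrays, in grey for the scrambled control, orange for C66 and blue for C75. The C75 dots lie outside the control dots for every gene shown, which the naming rule required, while C66 lies on either side.

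A large share of the lower genes were neighbours. Genes above the median level were set in RefSeq order along each chromosome, and a run was a stretch in which the running median of the log2 fold change over 21 genes was at least 0.2 in size with one sign. The 7 runs found held 266 tested genes, of which 40 passed, all 40 lower and 13 of them at least 2-fold. Outside runs, 17182 genes were tested and 68 passed, 24 higher and 44 lower. The runs were drawn from the same fold changes, so these counts are a description and carry no test.

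The longest run lay on chromosome 10, from ZMYND11 to BMS1. Of its 77 genes above the median level, 73 had a fold change below 0, with a median of -0.53. The median difference from the control mean was -0.51 and -0.57 in the C75 arrays, 0.02 and -0.02 in the control arrays and 0.17 and 0.15 in the C66 arrays. Among these groups only the C75 arrays were low, and the median of C75 minus C66 was -0.71. The same stretch was also low in the induced line against its own control, with a median of -0.51 in 3D and -0.50 in 2D. The run held 149 tested genes and 31 passed, all lower. On the whole of chromosome 10, 5.25% of 648 genes passed, 32 lower and 2 higher.

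The genes named from this stretch have different functions. ST8SIA6, a sialyltransferase, read 5.62 and 4.82 in the control and 4.00 and 3.49 in C75 (log2 fold change -1.47, adjusted p = 0.00228), with 0.127 without C75 replicate 2 and 0.164 without scrambled replicate 1. AKR1E2, an aldo-keto reductase, fell from 4.46 and 4.54 to 2.89 and 3.28 (log2 fold change -1.41, adjusted p = 0.000274). NUDT5, which hydrolyses ADP-ribose, fell from 5.10 and 5.40 to 4.19 and 3.76 (log2 fold change -1.28, adjusted p = 0.000485). AKR1E2 and NUDT5 passed in every alternative that kept the genes of the runs. ITGB1, the beta-1 integrin chain, fell by 0.65 (adjusted p = 0.00423), with 0.0648 without C75 replicate 1, 0.0658 without C75 replicate 2 and 0.118 without scrambled replicate 1.

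A second stretch lay on chromosome 14, from HEATR5A to SEC23A. The median difference from the control mean over its 21 genes above the median level was -0.45 and -0.52 in C75, 0.06 and -0.06 in the control and -0.08 and -0.11 in C66. Of 29 tested genes 7 passed, all lower: EAPP, EGLN3, FAM177A1, MBIP, NFKBIA, SNX6 and SRP54. SNX6, a sorting nexin, fell from 6.30 and 6.5996 to 5.42 and 5.19 (log2 fold change -1.15, adjusted p = 0.000104). FAM177A1 fell by 1.24 (adjusted p = 0.0157), and it did not pass when any of the 4 arrays was left out, with adjusted p up to 0.259 without C75 replicate 2. HIF1A lies on the same chromosome outside the run.

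The other 5 runs were shallower. On chromosome 16, 17 genes between TRAPPC2L and DRC4 had a median of -0.30, and TCF25, a ribosome-associated quality control factor, passed (log2 fold change -0.76, adjusted p = 0.0215). Without any one of the 4 arrays it did not pass, with adjusted p up to 0.335 without C75 replicate 2. The only run with a positive median, 11 genes between TERF2 and DDX19A on chromosome 16, had a median of 0.30 with 0 genes called. In C66 against the control its median was 0.17, and the median of C75 minus C66 was 0.03. DNA copy number was not measured.

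**Figure D2:**
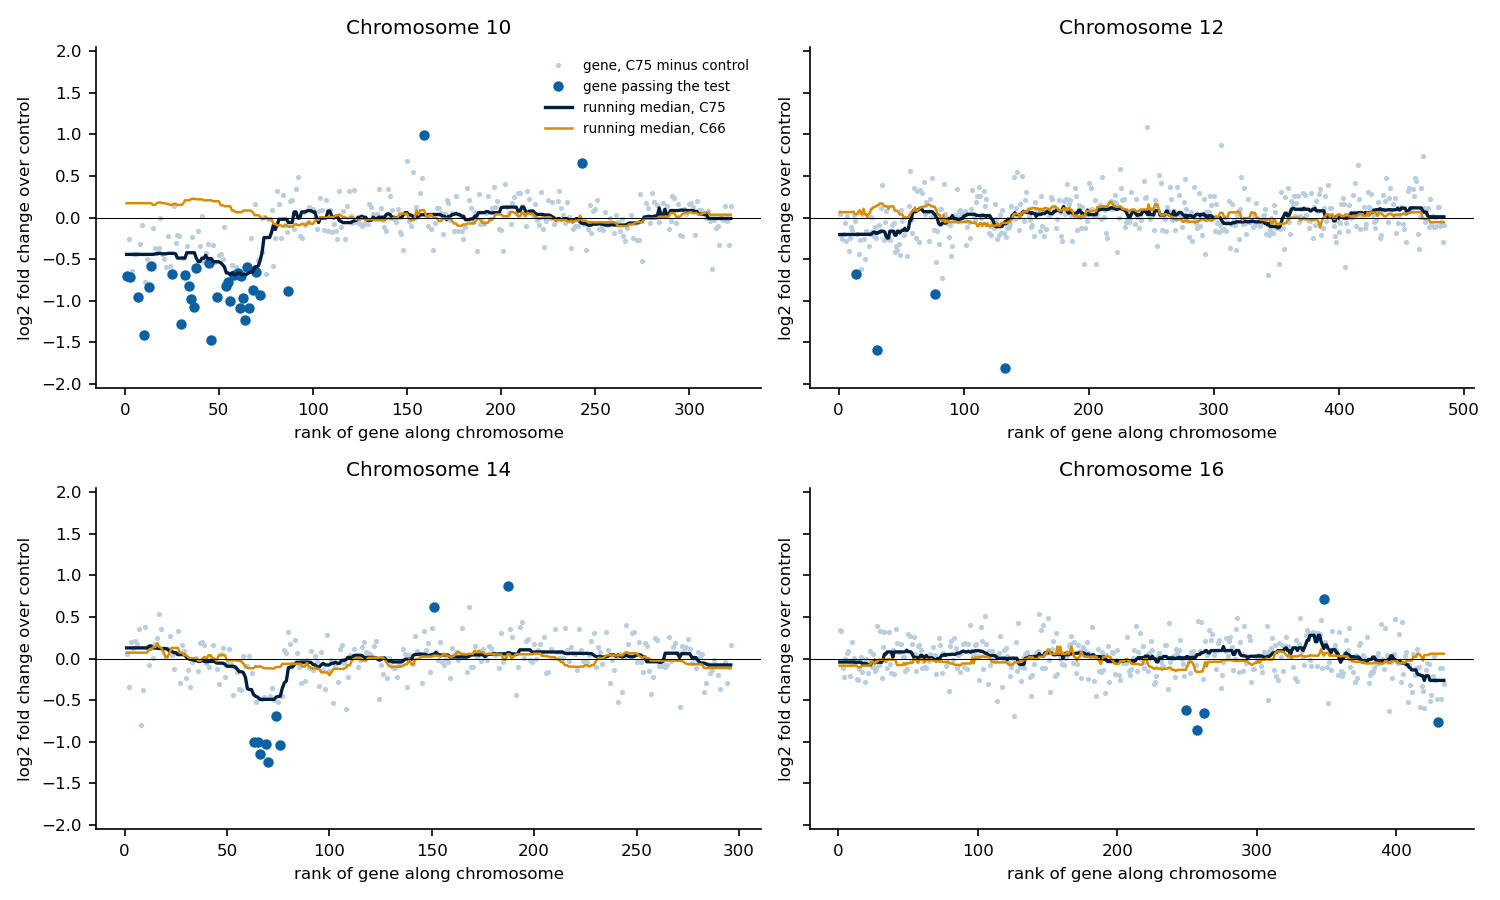
Log2 fold change over the scrambled control against the rank of genes along chromosomes 10, 12, 14 and 16; pale dots are genes in C75, dark dots genes that passed, the dark line the running median in C75 and the orange line that in C66, with dots beyond 2 in size drawn at 2. The C75 line is low at the start of chromosome 10 and in a short stretch of chromosome 14, where the C66 line is not.

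The remaining 3 runs lay on chromosome 12 on the side of DPPA3 towards the start of the chromosome. Among the 55 genes above the median level between that end and DPPA3, IQSEC3 to APOBEC1, 46 had a fold change below 0 and the median was -0.20. The medians of the C75 arrays were -0.21 and -0.20, those of the control arrays 0.03 and -0.03 and those of the C66 arrays 0.07 and 0.09. Of the next 55 genes after DPPA3, FOXJ2 to STK38L, 25 were below 0 and the median was 0.02. The split at DPPA3 was chosen after these values were seen, so no test is given.

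FOXM1 and SCARNA10 were the genes before DPPA3 that passed. FOXM1, a transcription factor of G2 and mitosis, read 7.08 and 6.91 in the control and 6.19 and 6.46 in C75 (log2 fold change -0.67, adjusted p = 0.00352). Its adjusted p was 0.142 without C75 replicate 1 and 0.129 without scrambled replicate 1. In the same 55 genes the median was 0.01 for the shRNA and 0.01 for the induced line in 3D, each against its own control.

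**Figure D3:**
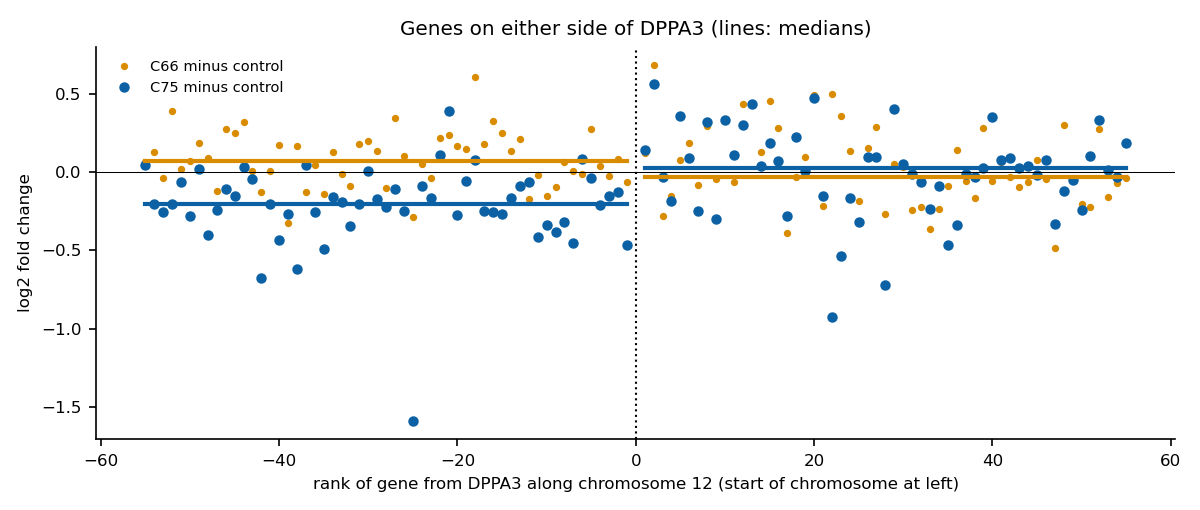
Log2 fold change over the scrambled control of the 55 genes above the median level on each side of DPPA3, by rank along chromosome 12; blue dots are C75, orange dots C66, and horizontal lines their medians on each side. The blue median is -0.20 before DPPA3 and 0.02 after it, and the orange ones are 0.07 and -0.03.

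The 27 gene lists held 914 distinct genes, of which 818 were measured. In the hypoxia list, 1 of 41 measured genes passed, lower, and the median was -0.08. Over all genes tested, 0.619% passed, 0.481% as lower, and the median was -0.0015; every list count given here is to be read against these shares. That gene was EGLN3, the prolyl hydroxylase PHD3, which marks HIF proteins for degradation and is itself a HIF target. It read 5.02 and 4.83 in the control and 3.83 and 4.01 in C75 (log2 fold change -1.004, SE 0.18, adjusted p = 0.00397), with 0.0898 without C75 replicate 1 and 0.120 without scrambled replicate 1. It sits in the chromosome 14 run, in which 18 of 21 genes above the median level had a fold change below 0. HIF1A itself read 6.67 and 6.59 in the control and 6.93 and 6.44 in C75, a log2 fold change of 0.05 (adjusted p = 0.994). VEGFA, a HIF target and angiogenic factor, differed by 0.25 on the log2 scale (adjusted p = 0.813).

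In glycolysis, 1 of 22 measured genes passed: PFKP, the platelet form of phosphofructokinase, in the chromosome 10 run, fell by 0.96 (adjusted p = 0.00168), with 0.0691 without C75 replicate 2 and 0.0820 without scrambled replicate 1. The glycolysis median was 0.02. Among aldo-keto reductases and NRF2 targets, 2 of 25 passed, AKR1E2 and AKR1C3, both in that run. AKR1C3, which reduces steroids and prostaglandins, fell by 0.83 (adjusted p = 0.00115), with 0.0579 without C75 replicate 1 and 0.0537 without scrambled replicate 2.

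In S phase and DNA replication 1 of 47 genes passed, lower, with a median of 0.01, and in G2 and mitosis 2 of 54, lower, with a median of -0.05, where 0.481% of all genes passed as lower. MCM10, a replication initiation factor of the chromosome 10 run, fell by 0.83 (adjusted p = 0.0183), with 0.437 without C75 replicate 1, 0.214 without scrambled replicate 1 and 0.113 without scrambled replicate 2. GTSE1, a microtubule-binding regulator of p53 in G2, lay outside runs and read 5.03 and 4.93 in the control against 4.33 and 4.27 in C75 (log2 fold change -0.68, adjusted p = 0.00364). Its adjusted p was 0.0769 without C75 replicate 2 and 0.110 without scrambled replicate 1. MKI67, the proliferation marker Ki-67, read 7.27 in each control array and 7.38 and 7.29 in C75 (log2 fold change 0.07, adjusted p = 0.976). CDKN1A, which encodes the cyclin-dependent kinase inhibitor p21, differed by -0.09 on the log2 scale (adjusted p = 0.983), and 0 of 37 genes of the list of inhibitors, quiescence and p53 targets passed.

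In the list of intestinal stem cell genes and Wnt targets, 3 of 27 measured genes passed, all lower and all outside runs, where 0.481% of all genes tested passed as lower. The list median was -0.07. All 3 are inhibitors of Wnt signalling that the pathway itself induces. APCDD1 read 7.78 and 7.81 in the control and 6.92 and 6.99 in C75 (log2 fold change -0.84, SE 0.16, adjusted p = 0.00423). DKK1, which blocks the LRP co-receptors, fell by 0.88 (adjusted p = 0.0327), and NKD1, which acts on Dishevelled, by 0.62 (adjusted p = 0.00978). With 1 array fewer these calls were often lost, although the direction held. Over the 4 omissions the log2 fold change ran from -0.87 to -0.80 for APCDD1, from -1.12 to -0.65 for DKK1 and from -0.79 to -0.45 for NKD1. APCDD1 had an adjusted p of 0.0763 without C75 replicate 1, 0.0525 without C75 replicate 2, 0.0756 without scrambled replicate 1 and 0.0654 without scrambled replicate 2. DKK1 had 0.536 without C75 replicate 2, 0.326 without scrambled replicate 1 and 0.144 without scrambled replicate 2. NKD1 had 0.0732 without C75 replicate 1, 0.179 without C75 replicate 2 and 0.374 without scrambled replicate 1. LGR5, the stem cell receptor for R-spondins, read 6.12 and 6.005 in the control and 6.25 and 5.96 in C75 (log2 fold change 0.04, adjusted p = 0.994).

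The promoters of DKK1 (chr10:52314031-52314330, plus strand), APCDD1 (chr18:10454385-10454684, plus strand) and EGLN3 (chr14:33951025-33951324, minus strand) are shown from RefSeq (GRCh38.p14) as windows of 300 bases around the annotated start. These genes were taken because they passed in the lists of Wnt targets and hypoxia genes. An effect on either pathway was not tested. On either strand, capitals mark the TCF letters CTTTG in DKK1 and APCDD1. In EGLN3 they would mark the HIF letters ACGTG, or the same with G as first base.
DKK1: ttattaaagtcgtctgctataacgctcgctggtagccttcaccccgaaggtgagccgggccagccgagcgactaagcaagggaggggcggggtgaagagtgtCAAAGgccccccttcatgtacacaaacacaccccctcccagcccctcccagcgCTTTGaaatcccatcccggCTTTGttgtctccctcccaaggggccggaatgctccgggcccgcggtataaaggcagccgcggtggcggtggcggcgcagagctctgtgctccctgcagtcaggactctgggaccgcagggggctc
APCDD1: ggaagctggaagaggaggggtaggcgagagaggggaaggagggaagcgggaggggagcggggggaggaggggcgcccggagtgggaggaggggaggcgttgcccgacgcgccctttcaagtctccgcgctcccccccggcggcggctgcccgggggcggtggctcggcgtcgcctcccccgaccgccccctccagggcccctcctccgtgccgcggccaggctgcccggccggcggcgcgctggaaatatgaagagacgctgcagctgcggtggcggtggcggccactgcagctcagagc
EGLN3: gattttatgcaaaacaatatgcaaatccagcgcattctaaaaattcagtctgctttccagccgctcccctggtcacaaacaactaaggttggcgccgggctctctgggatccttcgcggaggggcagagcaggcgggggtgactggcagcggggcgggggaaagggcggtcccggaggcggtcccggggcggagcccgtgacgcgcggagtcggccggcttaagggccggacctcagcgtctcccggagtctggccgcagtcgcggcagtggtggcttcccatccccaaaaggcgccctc
DKK1 held 3 matches and the other 2 windows 0. Of 35116 promoter windows, 47.5% held the TCF letters and 48.4% the HIF letters. A match is a description of these letters, and no match says only that they are not in this window.

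After that search, CG dinucleotides, the sites of DNA methylation, were counted in the promoters of the genes that passed. The promoter of UPK1A (chr19:35666267-35666566, plus strand), one of the most lowered genes, is shown with CG in capitals.
UPK1A: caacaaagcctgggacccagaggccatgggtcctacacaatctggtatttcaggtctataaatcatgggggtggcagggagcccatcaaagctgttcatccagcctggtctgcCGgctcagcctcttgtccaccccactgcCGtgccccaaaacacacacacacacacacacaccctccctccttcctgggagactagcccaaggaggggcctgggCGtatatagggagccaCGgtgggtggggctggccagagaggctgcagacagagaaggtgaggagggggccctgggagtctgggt
It held 4 CG, where the median over a gene's windows was 22 for all genes tested and 26 for those above the median level. At most 5 CG were found for 16.6% of all genes tested that had a window, and for 4.60% of those above the median level. Of all windows, 96.0% held at least 1. Only 29 of the 44 lower genes outside runs had a window, 65.9%, so the comparison of that set is void and its counts are not given. UPK1A belongs to that set, so its count describes its own window and says nothing of the others. The 24 higher genes had a median of 16 over 20 with a window, and the 40 lower genes inside runs a median of 25.8 over 34. DNA methylation was not measured on these arrays.

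In the list of BMP signalling and ID genes, 2 of 27 passed, lower. ID1, an inhibitor of bHLH factors and BMP target, read 6.13 and 6.04 in the control and 4.85 and 5.24 in C75 (log2 fold change -1.04, SE 0.14, adjusted p = 0.000128), and passed in every alternative. BAMBI, a decoy receptor for TGF-β and BMP in the chromosome 10 run, fell by 1.08 (adjusted p = 0.00387), with 0.0691 without C75 replicate 2 and 0.205 without scrambled replicate 1. The list median was -0.11, and 20 of 27 genes were below 0, as were 8794 of all 17448 genes tested.

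Single genes passed in 5 other lists. CEACAM6, an adhesion molecule of colonocytes that is often raised in colorectal cancer, read 5.95 and 5.96 in the control and 5.05 and 5.19 in C75 (log2 fold change -0.83, adjusted p = 0.000274), 1 of 37 absorptive genes, and passed in every alternative. TIMP1, an inhibitor of metalloproteinases, read 6.91 and 6.68 in the control and 5.75 and 5.596 in C75 (log2 fold change -1.12, adjusted p = 0.00404), 1 of 41 matrix genes, with 0.106 without C75 replicate 2 and 0.128 without scrambled replicate 1. ITGB1 was 1 of 22 integrins and laminins. The list of NF-κB targets had a median of 0.09, with 8 of 33 genes below 0. NFKBIA, the inhibitor IκBα in the chromosome 14 run, fell by 0.69 (adjusted p = 0.00397), 1 of 33 NF-κB targets, with 0.146 without C75 replicate 2 and 0.118 without scrambled replicate 1. UMPS, which makes uridine monophosphate and activates 5-fluorouracil, rose by 0.66 (adjusted p = 0.0253), 1 of 33 genes of drug transport and metabolism. UMPS did not pass when any of the 4 arrays was left out, with adjusted p up to 0.360 without C75 replicate 2.

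In the other 15 lists 0 genes passed by limma. Among them were the DNA methylation machinery (0 of 23, median 0.01), interferon-stimulated genes (0 of 38, median -0.03), germline and cancer-testis genes (0 of 31, median 0.02) and imprinted genes (0 of 29, median -0.02). UHRF1 differed by -0.07 on the log2 scale (adjusted p = 0.993) and DNMT1 of 0.01 (adjusted p = 0.998). Ribosome biogenesis had a median of 0.16, with 1 of 27 genes below 0, and 0 genes passed. Cholesterol and fatty acid synthesis had a median of 0.13, with 10 of 32 below 0. Of all 17448 genes tested, 8794 were below 0. Over all genes, 1417 had an unadjusted p under 0.05.

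C75 was then compared directly with C66, since both clones share their control. By limma, 506 genes differed between them (2.90%), 161 higher in C75 (0.923%) and 345 lower (1.98%). C75 differed from both the control and C66 in one direction in 82 genes (0.470%). These were 15 of the 24 higher genes and 67 of the 84 lower genes, while 9 and 17 did not differ from C66 past the threshold. The C75 arrays lay outside the arrays of both other groups in 21 of the 24 and 79 of the 84. These genes had been chosen for a C75 difference from the control, and the same count was not made over all genes. It is therefore a description and carries no test.

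Several genes moved to opposite sides of the control in the clones. UPK1A read 8.61 and 8.56 in C66, above the control, and C75 minus C66 was -2.84 (adjusted p = 1.10e-12). NELL2 read 7.80 and 7.85 in C66 (C75 minus C66 -2.74, adjusted p = 1.73e-08), and PCP4 6.80 and 6.82 (-2.71, adjusted p = 6.08e-09). TIMP1 read 8.25 and 8.18 in C66 (-2.54, adjusted p = 1.25e-08). In the other direction, GABRA2 read 2.49 and 2.60 in C66 (2.51, adjusted p = 2.65e-12), A2ML1 3.45 and 3.39 (2.13, adjusted p = 8.99e-09) and CA8 2.56 and 2.33 (1.70, adjusted p = 6.24e-08). All 7 passed in C66 against the control too, on the other side, where 250 genes passed in all (1.43%).

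HAVCR1, SPINK1 and IRF8 differed between the clones and did not pass in C75 against the control. SPINK1, a secreted trypsin inhibitor, read 8.74 in each control array, 8.19 and 8.27 in C75 and 6.45 and 6.47 in C66, with C75 minus C66 at 1.77 (adjusted p = 2.32e-06). HAVCR1, a phosphatidylserine receptor, had C75 minus C66 at 1.82 (adjusted p = 8.71e-06), and IRF8, an interferon regulatory factor, at 1.69 (adjusted p = 6.55e-06). LGR5 was also higher in C75 than in C66, by 1.21 (adjusted p = 2.49e-06). Against the control, C66 was lower in LGR5 (-1.16), HAVCR1 (-1.77) and IRF8 (-1.21), all past the threshold. The C75 log2 fold changes of these genes were 0.04, 0.05 and 0.48, in the same order. ID1 and NMUR2 passed by limma in C66 below the control as well, with log2 fold changes of -0.68 (adjusted p = 0.00926) and -0.92 (adjusted p = 0.00388). For these genes the clones did not differ past the threshold (adjusted p = 0.278 and 0.190). TRIM31 was above the control in C66 too (log2 fold change 0.76, adjusted p = 0.0149), with C75 minus C66 at 0.05 (adjusted p = 0.989).

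The shRNA and the induced line had controls of their own. By limma, 15 genes passed for the shRNA (0.086%). A2ML1 and GCNT3 were higher in both, 8.33% of the 24 genes higher in C75 and 33.3% of the 6 higher with the shRNA. No gene was lower in both, of 84 and 9. PLA2G2A was lower in C75 and 0.79 higher with the shRNA (adjusted p = 0.00120), and LY6G6D, a surface protein of the LY6 family, was higher in C75 and lower with the shRNA. The C75 effect differed from the shRNA effect in 47 genes (0.269%).

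In the induced line in 3D, 995 genes passed (5.70%), 511 higher (2.93%) and 484 lower (2.77%). Of the 84 genes lower in C75, 46 were also lower there, 54.8% of the C75 list and 9.50% of the induced list, and 27 of the 46 lay in runs. In the induced line the log2 fold change was -2.19 for CST1, -3.08 for NELL2, -1.495 for UPK1A, -3.27 for PLA2G2A and -2.03 for CYP4X1, all past the threshold. Of the 24 higher genes, ATP8A1, CA8, LY6G6D and PNPLA3 were higher in both, 16.7% and 0.783% of the lists. GABRA2 was lower in the induced line, and CEACAM6, GXYLT2, LGALS1, LINC01559, NTRK2 and TLR4 were lower in C75 and higher there.

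The chromosome 10 stretch was low in the induced line too, with a median of -0.51 in 3D and -0.50 after 4 hours in 2D, against -0.04 for the shRNA. The chromosome 14 stretch was not, at 0.03 and 0.06. In 2D 546 genes passed (3.13%), 327 higher and 219 lower, of 17448 tested. Of the 84 genes lower in C75, 38 were lower there, 23 of them in runs. These were 45.2% of the C75 list and 17.4% of the 219.

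**Figure D4:**
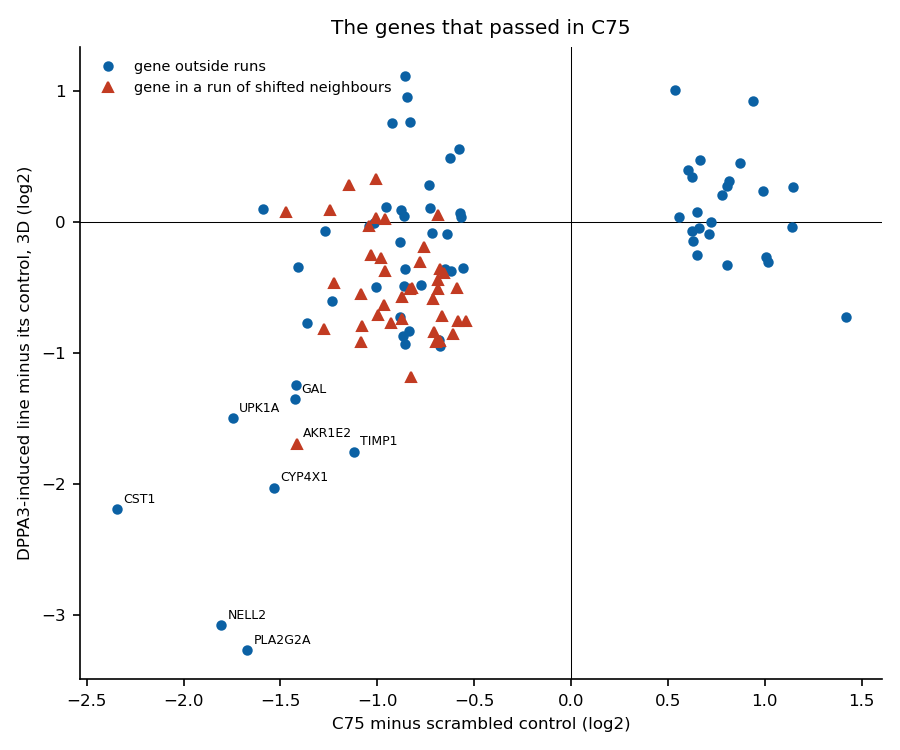
Log2 fold change in C75 over the scrambled control (horizontal) against that of the DPPA3-induced line over its own control in 3D (vertical) for the 108 genes that passed in C75; blue dots lie outside runs and red triangles in runs of shifted neighbours. CST1, NELL2 and PLA2G2A lie far to the lower left.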

How the data were processed

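Total RNA, extracted with Trizol and labelled with biotin per the labels' protocols, was measured on 24 arrays, of which 4 make the main comparison and 2 more (C66) its contrast. The authors deposited log2 values. Per the submitters' processing notes they used RMA in Partek 6.6, a method that subtracts background, matches the arrays' distributions and summarises probes, which can hide a shift shared by all genes. For the probe annotation, the build is not given in the sources used. Of 20276 probe sets, 18062 had 1 gene symbol, 1288 several and 926 none. The brightest single-symbol set was kept for each of 17448 genes, and 17424 were placed in RefSeq order (GRCh38.p14).

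A linear model with group means was fitted over all 24 arrays with limma 3.58.1 in R 4.3.3 (15 residual and 9.81 prior degrees of freedom, 2-sided). Genes with a p under 0.05 after Benjamini-Hochberg adjustment passed. The method was tested on simulated data. Named were 8 fixed genes, the 14 largest changes in each direction among called genes without LOC or LINC symbols, with no overlap of arrays and with the brighter of both groups above the overall median, the 6 largest in each direction against C66, at most 4 genes per direction from each list, and 2 from each run. The members and lists were chosen with earlier results of these data known. Alternatives changed the arrays that set the variance, the replicate block, probe sets, dim genes, scaling, variance moderation, the runs and each array in turn. Promoter letters were not planned: 3 kinds of letters were searched after values had been seen, TCF and HIF letters first and CG afterwards. A gene with no promoter window (NKD1, CST1, NELL2) is shown without one, as are PLA2G2A, GABRA2 and SATB1, which had several. The number of arrays limits the precision.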

Additional observations from a re-analysis of the deposited data

Results flagged for a closer look

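The 28 most changed named genes were examined for differences between the clones and between C75 and the shRNA. Of these, 20 differed between the clones by limma's test of the difference itself (adjusted p under 0.05), against 2.9% of all genes tested. The genes were chosen for a large C75 change, and the same C75 arrays enter this difference. The count is therefore a description and not independent support. Lower in C75 than in C66, on the log2 scale, were UPK1A (-2.84), NELL2 (-2.74), PCP4 (-2.71), CST1 (-2.08), ST8SIA6 (-2.03), CYP4X1 (-1.93), AKR1E2 (-1.70), GAL (-1.65), NUDT5 (-1.29), SEMA6A (-1.27) and PLA2G2A (-1.20). Higher in C75 than in C66 were GABRA2 (2.51), A2ML1 (2.13), CA8 (1.70), SATB1 (1.499), CDHR1 (1.44), GCNT3 (1.03), MUC12 (0.87), UBE2E2 (0.84) and ENTPD5 (0.82).

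In 13 of these genes the C75 change differed from the shRNA change, each against its own control, where 0.269% of all genes tested did so. The C75 change by which the genes were chosen is part of this difference, so the count is again a description. The C75 change was lower for CST1 (-3.35), PLA2G2A (-2.46), CYP4X1 (-1.87), GAL (-1.82), PCP4 (-1.80), NELL2 (-1.57), UPK1A (-1.29), AKR1E2 (-1.27) and NUDT5 (-1.22). It was higher for GABRA2 (1.70), MUC12 (1.49), SATB1 (1.29) and CDHR1 (1.05).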

How the results depend on the processing

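Of 47 named genes that passed in C75, 18 passed under every alternative that held them, 29 were lost in at least 1 of up to 15 settings and 0 reversed. The count of higher genes was 55 when only the 6 arrays of the knockout experiment set the variance. With the genes in runs left out, 37 lower genes and 39 differing from both groups were called, on fewer genes tested. Leaving out 1 array of C75, C66 or the control gave 7 to 24 higher genes, 29 to 83 lower, 259 to 488 between the clones, 32 to 69 differing from both and 13 to 39 inside runs. Lower genes were fewest without scrambled replicate 1 (29) and C75 replicate 2 (37), and higher genes without scrambled replicate 2 (7) and scrambled replicate 1 (9). The replicate block changed little: 29 higher and 86 lower genes, 99 shared with the 108, though DKK1 lost its call (adjusted p = 0.0789). Correlations of replicate differences between the knockout groups were low (0.00904 to 0.0940). The labels do not say what a replicate number marks, so a pairing of the samples is not known. DKK1 (adjusted p = 0.0538), SCARNA10 (0.0612) and SETD7 (0.0643) also lost their calls without the runs, SCARNA10 with robust variances (0.178), NKD1 (0.0581) and SETD7 (0.0552) with variance from 6 arrays, and FOXM1 (0.0645), MCM10 (0.0543), NKD1 (0.0918) and SETD7 (0.0808) with variance from 4. Run thresholds of 0.15 and 0.3, added after seeing the data, put 41 and 38 called genes in runs. Values near 0 that changed sign, none of them called, were DNMT1 with repeated quantile normalization (-0.016) and, with 1 of the 4 compared arrays left out, CDKN1A (-0.24 to 0.052), DNMT1 (-0.052 to 0.069), HAVCR1 (-0.15 to 0.25), HIF1A (-0.19 to 0.30), LGR5 (-0.10 to 0.19) and UHRF1 (-0.30 to 0.15). The causes were not tested. Levels near the bottom of the scale, such as DPPA3, can understate a fold.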
